A study of Mus musculus with 6 samples.

Results

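The genes described here encode the enzymes that add methyl groups to histone lysines or take them off, measured by RNA-seq in LSKs of irradiated mice with and without Tespa1. They were taken from the expression table as protein-coding genes whose symbol begins with Kdm, Kmt, Setd, Jmjd, Nsd, Ezh, Ehmt or Suv39h, together with Suz12, Eed, Dot1l and Ash1l. This gave 55 of the 55487 genes in the table, of which 54 were placed in 11 groups by the role of their protein. The remaining gene, Nsdhl, matched by its letters only and encodes a sterol dehydrogenase of cholesterol synthesis. A filter on low counts left 54 of the 55 genes to test. Kdm4d, an H3K9 demethylase gene known mainly from testis, did not pass it, with 4, 8 and 4 counts in the Tespa1+/+ libraries and 0 in each Tespa1-/- library, where a count of 0 allows up to 3 counts by counting error alone.

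LSKs are bone marrow cells that lack lineage markers and carry Sca-1 and c-Kit, a fraction that holds hematopoietic stem cells (HSCs) along with multipotent progenitors. The Tespa1+/+ group was 3 libraries from wild-type littermates, and the Tespa1-/- group was 3 libraries from a germline knockout line on a C57BL/6 background, so that every cell of the animal lacked the intact gene and not blood cells alone. All mice were male, 8 to 10 weeks old and had received 5.0 Gy of total body irradiation 13 days earlier, and no unirradiated group was analysed here. No source says whether the replicates were separate mice or pools, so p-values measure only the spread between these libraries, which may in part be technical.

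The libraries held 12856630 to 30576981 counts, of which the 55 genes took 0.624 to 0.644% in Tespa1+/+ against 0.375 to 0.396% in Tespa1-/- LSKs. Tespa1 itself had 626, 1033 and 533 counts in Tespa1+/+ against 261, 207 and 176 counts in Tespa1-/- libraries, a 2.35-fold lower level with reads left in every knockout library. The sources used here do not say which part of Tespa1 was deleted. Of the sort markers, Kit (c-Kit) was at 322 to 341 CPM (counts scaled to library size) in Tespa1+/+ against 165 to 177 in Tespa1-/-, and Ly6a (Sca-1) at 43.4 to 63.8 against 38.1 to 44.2. All 10 listed neutrophil genes were higher in Tespa1-/- LSKs. By the rule for calls given below, 9 of them were called higher, against 14.0% of all genes tested. Mpo rose 1.40-fold, which is short of that rule. The summed level of the 10 genes was 9494 to 10196 CPM in Tespa1+/+ against 15472 to 15919 in Tespa1-/-. Mpo, Elane and Prtn3, which promyelocytes also express, made up most of that sum, and genes of later neutrophil stages rose by far more. S100a8 was at 2.64 to 2.82 CPM in Tespa1+/+ against 84.9 to 90.7 in Tespa1-/-, and Ngp at 0.165 to 0.337 against 71.4 to 72.6. Their part in the results below was not tested. In bulk samples such as these, fewer cells of a type and less RNA per cell cannot be told apart.

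Lysine methylation of histone tails marks the state of a gene without changing its sequence. SET-domain methyltransferases and the unrelated enzyme DOT1L place the methyl groups, the KDM1 enzymes remove them by oxidation with FAD, and the JmjC demethylases remove them with iron and alpha-ketoglutarate. Methylation of H3K4 is found at active promoters and enhancers, that of H3K36 and H3K79 along transcribed genes, and that of H3K27 and H3K9 at repressed ones. In blood formation the field is known for KMT2A (MLL), which maintains HSCs and is rearranged in leukemia, and for EZH2 and the other subunits of polycomb repressive complex 2 (PRC2), which hold lineage genes silent in HSCs.

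In Tespa1-/- LSKs 19 of the 54 tested genes were called lower and 1 was called higher. Called means an adjusted p under 0.05 in edgeR's quasi-likelihood test, with Benjamini-Hochberg adjustment over all genes tested, and a fold over 1.5. The 19 genes were 35.2% of the tested members, against 19.2% of all 15332 genes tested, and the 1 higher gene, Jmjd7, was 1.85% against 14.0%. A further 18 members passed the adjusted p without reaching that fold, and 16 did not pass it. The median log2 fold change was -0.47 over the members and -0.00 over all genes, and 45 of the 54 members were below 0. In 39 members, or 72.2%, the CPM of the 3 Tespa1+/+ libraries did not overlap those of the 3 Tespa1-/- libraries, against 69.1% of all genes.

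Length moved with these values. Over all genes the fold change fell as the summed length of a gene's exons rose, and the members are long, with a median of 7278 exon bases against 3664 over all genes. A second fit, which takes out the trend of each library on exon length (the length correction), was therefore made, and its values are given beside the first. In that fit 4 members were called lower, Kdm6b, Kmt2d, Jmjd1c and Kmt2a, which is 7.41% of the members against 13.4% of all genes. The called rise of Jmjd7 remained, against 11.6% of all genes called higher, and 23 members passed the adjusted p only. The correction moved the median of all genes to 0.11 and that of the members to -0.04, so the members' median lay 0.14 below that of all genes on the log2 scale.

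**Figure D1:**
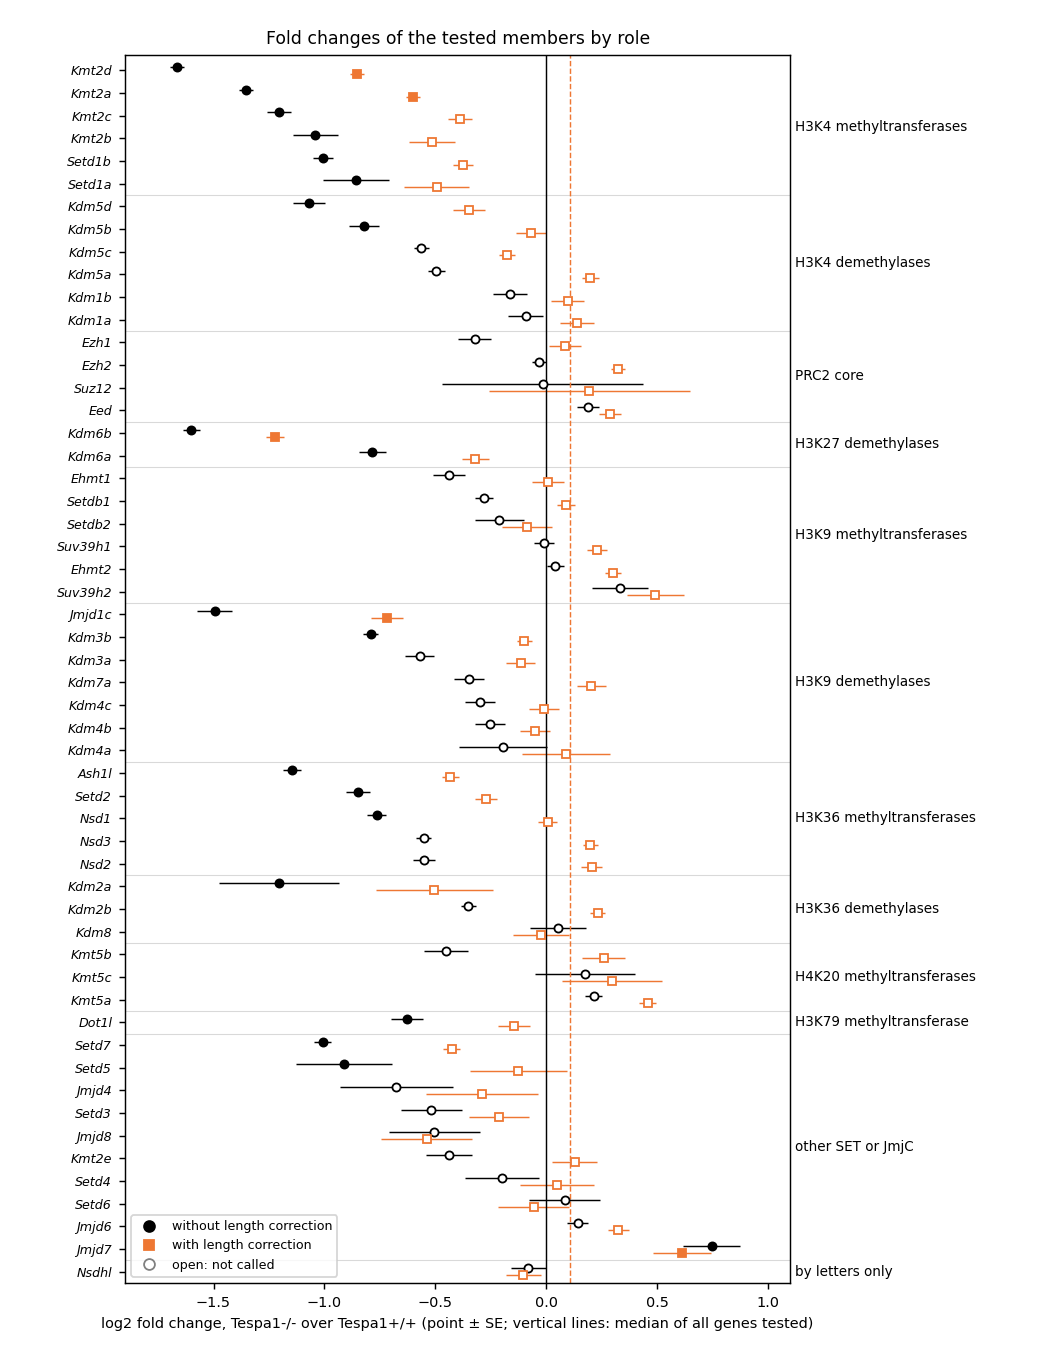
Log2 fold change of Tespa1-/- over Tespa1+/+ LSKs for the 54 tested genes, grouped by role, with the standard error, without (black) and with (orange) the length correction; filled symbols are called, and the vertical lines are the medians of all genes tested. The 6 H3K4 methyltransferase genes lie between -1.66 and -0.86 without the correction and stay below 0 with it. In contrast, 20 other genes change side of 0, among them Ezh2, Nsd2 and Kdm5a. The corrected median of all genes is 0.11, and some of the 20 lie below it.

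The H3K4 methyltransferase genes fell together. All 6 were called lower, against 19.2% of all genes, and their median log2 fold change was -1.12. In the length-corrected fit all 6 remained below 0 and passed the adjusted p, 2 of them with a fold over 1.5, and their median was -0.50, or -0.61 relative to that of all genes. Kmt2d (chr15:98831669-98871204 of GRCm38, minus strand), which encodes an enhancer H3K4 monomethyltransferase, was at 557, 579 and 554 CPM in Tespa1+/+ against 179, 181 and 173 in Tespa1-/- libraries. The groups lay far apart, with little spread within either. The difference was 3.17-fold (log2 fold change -1.66, SE 0.03, adjusted p = 2.3e-07 by edgeR), and -0.85 on the log2 scale with the length correction (adjusted p = 3.9e-06). This was the largest fall among the members without the correction.

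Kmt2a (chr9:44803355-44881296, minus strand), the MLL gene, was at 256, 261 and 256 CPM in Tespa1+/+ against 101, 102 and 99.1 in Tespa1-/- libraries, again with no overlap. Its log2 fold change was -1.35 (SE 0.03, adjusted p = 4.1e-07), and -0.60 with the length correction (adjusted p = 9.6e-06), just past the fold of 1.5. Without replicate 3 of Tespa1-/- the corrected value was no longer called. Kmt2c, the closest relative of Kmt2d, was at 118, 125 and 116 CPM against 51.1, 49.4 and 55.2, a log2 fold change of -1.20 that became -0.39 with the correction. Kmt2b, the closest relative of Kmt2a, was at 173, 180.3 and 181 CPM against 80.6, 102 and 76.9, with values of -1.04 and -0.51. In Kmt2b, replicate 2 stood above the other Tespa1-/- libraries but still far below all Tespa1+/+ libraries.

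The SET1 genes, whose products place most trimethylation of H3K4 at promoters, moved the same way. Setd1b was at 133, 138 and 129 CPM in Tespa1+/+ against 69.5, 65.9 and 64.4 in Tespa1-/- libraries, with log2 fold changes of -1.01 and, corrected, -0.38. Setd1a was more uneven, at 192, 187 and 161 CPM against 119.7, 99.9 and 77.7, with -0.86 and -0.49. Setd1a shares 3523 exon bases with the gene model Gm49388 on the same strand, so its counts are uncertain. By FPKM, a level per length of exon that allows genes to be compared, the sum of the 6 genes was 88.6 ± 2.80 in Tespa1+/+ against 36.4 ± 3.12 in Tespa1-/- LSKs (SD, n = 3), a ratio of 0.411 ± 0.0376.

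Both H3K27 demethylase genes were called lower as well, against 19.2% of all genes. With the length correction 1 of them was, against 13.4%. Kdm6b (chr11:69398508-69413675, minus strand), also known as JMJD3 and induced in many cells by stress and inflammatory signals, was at 236, 254 and 249 CPM in Tespa1+/+ against 81.3, 80.5 and 82.1 in Tespa1-/- libraries. The Tespa1-/- libraries were nearly equal and all far below the Tespa1+/+ libraries. The log2 fold change was -1.60 (SE 0.04, adjusted p = 6.3e-07) and -1.22 with the length correction (adjusted p = 1.9e-06), the largest corrected fall of any member. By FPKM, Kdm6b ranked highest of the 55 genes in Tespa1+/+ LSKs (35.0 ± 1.33, SD, n = 3) and 9 of 55 in Tespa1-/- LSKs (10.8 ± 0.0986).

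Kdm6a (chrX:18162575-18279936, plus strand), the X-linked demethylase UTX, was at 44.3, 43.6 and 44.9 CPM in Tespa1+/+ against 25.3, 27.5 and 24.3 in Tespa1-/- libraries, without overlap. Its log2 fold change was -0.78 (SE 0.06, adjusted p = 3.4e-05), and -0.32 with the correction (adjusted p = 0.00347), which is short of the fold of 1.5. Its Y-linked relative Uty, which the name rule does not take in, was also called lower (-0.67), with -0.13 and an adjusted p of 0.176 in the corrected fit.

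Unlike these, the genes of the PRC2 core, which writes H3K27 methylation, gave no call in either fit. Ezh2, the main catalytic subunit of dividing cells, was at 141, 143 and 147 CPM in Tespa1+/+ against 141, 138 and 142 in Tespa1-/- libraries, and the groups overlapped. Its log2 fold change was -0.03 (SE 0.03, adjusted p = 0.400), and 0.32 with the length correction (adjusted p = 1.6e-04). Ezh1, the other catalytic subunit, which is known from resting cells, was lower, at 3.34, 3.09 and 2.93 against 2.46, 2.18 and 2.34 FPKM. The groups of Ezh1 did not overlap, yet its log2 fold change of -0.32 (adjusted p = 0.00734) did not reach the fold of 1.5 and was 0.08 after correction (adjusted p = 0.357).

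Eed, the subunit that reads H3K27 trimethylation, was at 71.0, 66.8 and 73.3 CPM in Tespa1+/+ against 82.7, 78.8 and 78.5 in Tespa1-/- libraries. It passed the adjusted p in both fits, at 0.19 and 0.29 on the log2 scale, below the fold of 1.5. Suz12, which holds the complex together, varied more between libraries of a group than between the groups, with 128, 119 and 249 CPM against 219, 69.2 and 202. Its coefficient of variation was 43.9% in Tespa1+/+ against 50.2% in Tespa1-/- LSKs, the largest of any tested member in either group, and the standard error of its fold change was 0.45. At that spread even a difference in Suz12 larger than this error could go undetected.

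The ratio of Ezh2 to Ezh1 does not depend on the scaling of a library. By FPKM it was 4.83, 5.25 and 5.72 in Tespa1+/+ against 6.09, 6.74 and 6.45 in Tespa1-/- libraries, so every Tespa1-/- library lay above every Tespa1+/+ library. The log2 ratio was 2.39 ± 0.12 and 2.68 ± 0.07 (SD, n = 3), a difference of 0.29 with a two-sided exact permutation p of 0.1, the smallest that 3 against 3 can give. The exons of the genes have 6678 and 7440 bases.

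**Figure D2:**
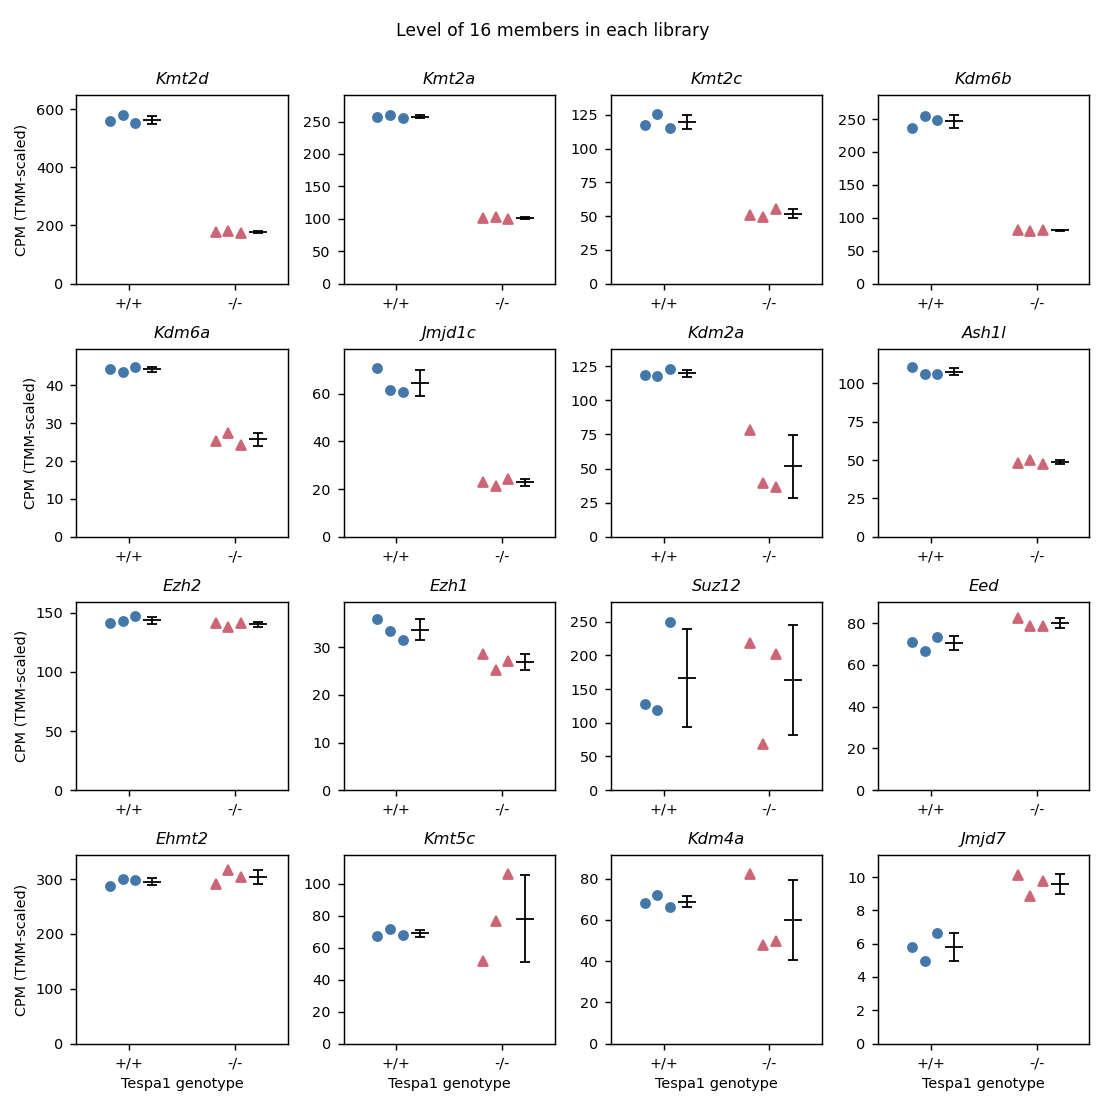
CPM, scaled by edgeR's TMM factors, of 16 of the genes in each library of Tespa1+/+ (blue circles) and Tespa1-/- (red triangles) LSKs, with the mean and SD of 3 libraries in black and each axis starting at 0. Kmt2d, Kmt2a and Kdm6b form tight, separate groups, Ezh2 and Ehmt2 overlap, and Suz12, Kmt5c and Kdm4a spread widely in at least 1 group.

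Since the H3K4 methyltransferase and H3K27 demethylase genes moved together, the 250 bases before their starts were read where RefSeq (GRCm38.p6) has an entry. Kdm6b, Kmt2b and Setd1b have no entry there, so their starts were not read. The study examines the factor c-Myc, which binds DNA with its partner MAX at the E-box CACGTG, a motif that reads the same on both strands. Of the 55 genes, 43 have an entry in the RefSeq promoter table. The motif is present before 3 of these 43 genes, namely Ehmt2, Kdm4c and Kdm6a. Some genes have more than 1 promoter in the table, and by promoter it is in 4 of 56, or 7.14%, against 6.02% of all 32851 promoters. Of the 12 genes called lower that have an entry, 1 holds it, and of the 4 H3K4 methyltransferase genes with an entry, 0 do. With the motif in 6.02% of all promoters, 12 and 4 genes are too few to tell their shares from that one. The stretches of Kmt2d (chr15:98871206-98871455, minus strand), Kmt2c (chr5:25498784-25499033, minus strand) and Kdm6a (chrX:18162325-18162574, plus strand) are shown as examples without and with the motif, which is in capitals.
Kmt2d: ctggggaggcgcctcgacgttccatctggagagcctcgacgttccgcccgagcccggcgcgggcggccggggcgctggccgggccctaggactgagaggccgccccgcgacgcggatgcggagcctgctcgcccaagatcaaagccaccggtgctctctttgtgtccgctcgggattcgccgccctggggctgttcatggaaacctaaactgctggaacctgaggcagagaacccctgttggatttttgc
Kmt2c: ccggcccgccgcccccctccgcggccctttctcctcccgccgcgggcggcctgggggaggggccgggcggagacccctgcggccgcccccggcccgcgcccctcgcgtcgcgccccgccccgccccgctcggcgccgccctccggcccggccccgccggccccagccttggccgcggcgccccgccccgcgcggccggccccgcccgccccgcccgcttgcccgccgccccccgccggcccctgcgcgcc
Kdm6a: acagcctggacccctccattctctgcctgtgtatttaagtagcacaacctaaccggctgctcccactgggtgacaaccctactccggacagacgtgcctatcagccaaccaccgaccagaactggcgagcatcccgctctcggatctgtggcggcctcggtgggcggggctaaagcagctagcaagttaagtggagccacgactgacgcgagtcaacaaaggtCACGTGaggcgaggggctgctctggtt
The E-box of Kdm6a begins 27 bases before the start. The stretches of Kmt2d and Kmt2c are rich in G and C, at 67.6% and 91.6%, and that of Kdm6a has 59.6%. A match is a description of the letters in these windows, and no binding was measured.

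The H3K36 methyltransferases, which mark gene bodies, were lower by count but not evenly so after the length correction. All 5 genes were below 0 without overlap between the groups, and 3 were called lower. Of all genes, 69.1% had no overlap and 19.2% were called lower. Ash1l, whose product works against polycomb silencing, was at 110.3, 106 and 106 CPM in Tespa1+/+ against 48.4, 49.9 and 47.5 in Tespa1-/- libraries, a log2 fold change of -1.15 (adjusted p = 1.5e-06). Setd2, the enzyme for trimethylation of H3K36, was at 179 CPM in each Tespa1+/+ library and at 108, 94.7 and 95.7 in Tespa1-/-, with a log2 fold change of -0.85. With the correction both passed the adjusted p but not the fold, at -0.43 and -0.27.

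The NSD genes, whose products place dimethylation on H3K36, parted from these in the corrected fit. Nsd1 was at 292, 302 and 285 CPM against 173, 164 and 181, a log2 fold change of -0.76 that was 0.01 with the correction (adjusted p = 0.920). Nsd2 (192, 177 and 199 against 132, 128 and 127 CPM) had -0.55 and, corrected, 0.20. Nsd3 (116, 112 and 114 against 76.6, 78.2 and 78.8 CPM) had the same pair of values. The NSD genes have 17483, 16803 and 16513 exon bases, and the direction of Nsd2 and Nsd3 turned with the correction.

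Of the H3K36 demethylases, Kdm2a was called lower, at 119, 118 and 123 CPM in Tespa1+/+ against 78.4, 39.7 and 36.6 in Tespa1-/- libraries. Replicate 1 stood well above the other Tespa1-/- libraries but below every Tespa1+/+ library. The log2 fold change was -1.21 (SE 0.27, adjusted p = 0.00604), and -0.50 with the correction (adjusted p = 0.142); without replicate 1 of Tespa1-/- Kdm2a was also called in the corrected fit. Kdm2b, which recruits a variant polycomb complex to CpG islands, had -0.35 and, corrected, 0.23, and Kdm8 had 0.05 and -0.02.

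The H3K4 demethylases differed by family. The 4 KDM5 genes, which remove H3K4 trimethylation, were below 0 with no overlap of the groups. Of all genes, 69.1% had no such overlap. Kdm5b (52.6, 52.6 and 57.0 against 28.4, 32.0 and 31.4 CPM) and the Y-linked Kdm5d (33.6, 33.5 and 34.8 against 15.2, 15.8 and 17.6 CPM) were called lower, at -0.82 and -1.07 on the log2 scale. Kdm5c (153, 156 and 161 against 106, 107 and 105 CPM) had -0.56, and Kdm5a (138, 139 and 134 against 97.6, 93.7 and 100.3 CPM) had -0.50. Neither of the last pair reached the fold of 1.5. In the corrected fit none of the 4 was called, and the values spread to both sides of 0, at -0.35 for Kdm5d, -0.18 for Kdm5c, -0.070 for Kdm5b and 0.20 for Kdm5a. Kdm5c and Kdm5d are similar in sequence, and how reads that fit more than 1 place were counted is not given in the sources used here.

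The KDM1 genes showed less. Kdm1a, which encodes LSD1, a partner of the blood repressors GFI1 and GFI1B, was at 112 ± 12.2 CPM in Tespa1+/+ against 105 ± 1.43 in Tespa1-/- LSKs (SD, n = 3), with overlap and a log2 fold change of -0.09 (adjusted p = 0.323). Kdm1b had -0.16 (adjusted p = 0.0932). With the correction these were 0.14 and 0.10.

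Among the H3K9 demethylases, Jmjd1c (chr10:67096125-67256326, plus strand), which encodes a JmjC protein of the KDM3 family, was at 70.5, 61.6 and 60.8 CPM in Tespa1+/+ against 23.0, 21.3 and 24.2 in Tespa1-/- libraries. The groups were well apart. Its log2 fold change of -1.49 (SE 0.08, adjusted p = 6.3e-06) was the third largest fall of the members, and it was called with the correction too (-0.72, adjusted p = 1.7e-04). Its relative Kdm3b was called lower (-0.79) without the correction and lay at -0.10 with it, and Kdm3a had -0.57 and -0.12. Kdm3b shares 3468 exon bases with Gm26538 on the opposite strand, so its counts are uncertain. Kdm4b, Kdm4c and Kdm7a passed the adjusted p at -0.25, -0.30 and -0.35, short of the fold. In the corrected fit Kdm4b and Kdm4c did not pass (-0.051 and -0.010), and Kdm7a turned to 0.20 (adjusted p = 0.0320). Kdm4a was uneven, with 8.67, 5.02 and 5.26 FPKM in Tespa1-/- against 7.48 to 8.11 in Tespa1+/+ libraries. It did not pass (-0.20, adjusted p = 0.420, and 0.088 with the correction), though without replicate 1 of Tespa1-/- it passed the adjusted p.

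The H3K9 methyltransferases, which build heterochromatin, gave no call in either fit. Ehmt2, which encodes G9a, was at 287, 300.0 and 299 CPM in Tespa1+/+ against 291, 317 and 304 in Tespa1-/- libraries, with overlap and a log2 fold change of 0.04 (adjusted p = 0.379), or 0.30 with the correction (adjusted p = 4.1e-04). By FPKM it ranked 2 of 55 in Tespa1+/+ against 1 of 55 in Tespa1-/- LSKs (29.2 ± 0.660 and 28.1 ± 1.20). Suv39h1, a trimethylase of pericentric H3K9, was at 148, 142 and 140.0 CPM against 144, 136 and 148, a log2 fold change of -0.01, or 0.23 with the correction (adjusted p = 0.00371). Suv39h2 (18.6, 20.7 and 15.8 against 23.5, 20.4 and 26.0 CPM) had 0.33 with an adjusted p of 0.0532, and passed in the corrected fit at 0.49 (adjusted p = 0.0129). These 3 genes passed the adjusted p only with the correction, below the fold of 1.5. Ehmt1 and Setdb1 passed the adjusted p at -0.44 and -0.28 without reaching the fold, and did not pass with the correction (0.0091 and 0.089). Setdb2 did not pass in either fit (-0.21 and -0.088). Setdb1 was at 112, 120.3 and 112 CPM against 94.6, 93.1 and 96.2, and Setdb2 at 22.2, 19.7 and 17.1 against 15.7, 17.2 and 18.3. With the correction 5 of the 6 genes were above 0, and the median of the group lay 0.05 above that of all genes.

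Dot1l, the H3K79 methyltransferase, was at 144, 167 and 152 CPM in Tespa1+/+ against 107, 101 and 91.6 in Tespa1-/- libraries, without overlap. Its log2 fold change of -0.63 (SE 0.07, adjusted p = 2.5e-04) was called lower, only just past the fold. Without replicate 2 of Tespa1+/+ and without replicate 3 of Tespa1-/- it was no longer called. With the correction it was -0.15 (adjusted p = 0.125). Of the H4K20 methyltransferases, Kmt5a, the monomethylase of dividing cells, passed the adjusted p at 0.21 without reaching the fold, and at 0.46 with the correction. Kmt5b had -0.45 and, corrected, 0.26. Kmt5c was uneven in Tespa1-/- LSKs, at 51.8, 76.5 and 106 CPM against 67.5 to 71.6 in Tespa1+/+, and did not pass in either fit.

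The last group holds 10 genes for SET or JmjC proteins with other, or non-histone, substrates. Jmjd7 (chr2:120027483-120032594, plus strand), which encodes a hydroxylase of translation-factor GTPases, was the only member called higher. It was at 5.78, 4.94 and 6.61 CPM in Tespa1+/+ against 10.1, 8.89 and 9.76 in Tespa1-/- libraries, without overlap. Its log2 fold change was 0.74 (SE 0.13, adjusted p = 0.00188), and 0.61 with the correction (adjusted p = 0.00552), where it was no longer called without replicate 2 of Tespa1+/+. It shares 1307 of its 1960 exon bases with the gene model Gm28042 on the same strand, so its counts are uncertain. Setd7, a monomethyltransferase of H3K4 and of several proteins, fell (-1.01, SE 0.04, adjusted p = 1.9e-06), from 159.9, 164 and 164 to 82.0, 77.6 and 82.9 CPM. Setd5 was also called lower (-0.91), though unevenly, at 167, 169 and 228 against 78.3, 134 and 87.5 CPM. With the correction these were -0.43 and -0.13, and neither was called. Kmt2e (122, 116 and 134 against 99.4, 76.9 and 98.1 CPM), a KMT2 relative regarded as lacking methyltransferase activity, had -0.44 and, corrected, 0.13. Setd3 and Jmjd6 passed the adjusted p at -0.52 and 0.14, and with the correction Jmjd6 did (0.33) and Setd3 did not (-0.21). Jmjd4, Jmjd8, Setd4 and Setd6 did not pass in either fit, at -0.68, -0.50, -0.20 and 0.08 without the correction and -0.29, -0.54, 0.049 and -0.056 with it. Nsdhl did not pass either, at -0.08 and -0.10.

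**Figure D3:**
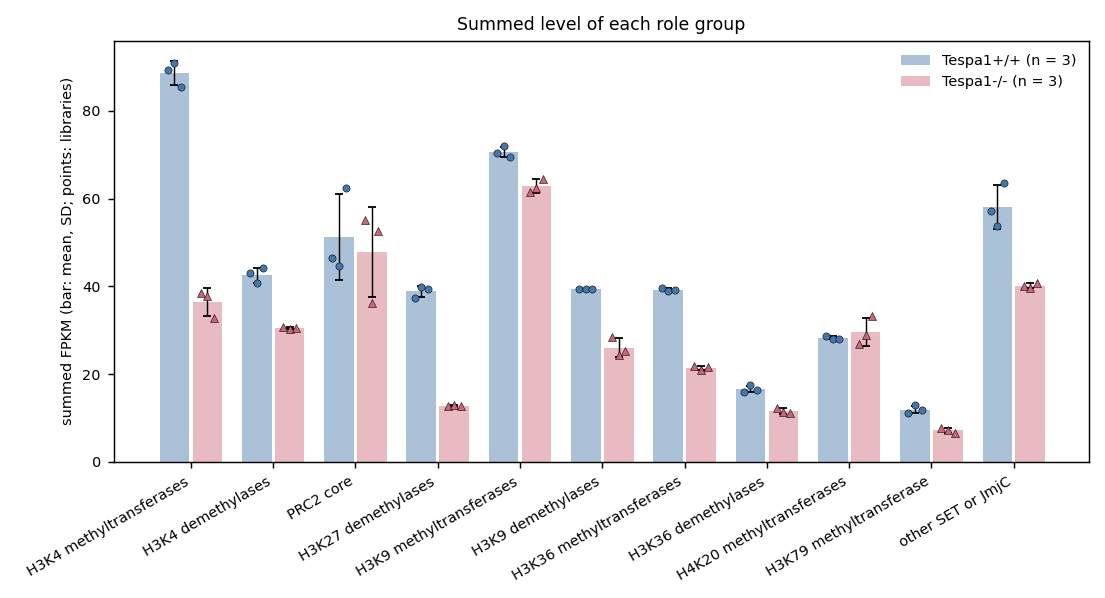
Summed FPKM of the genes of each role group in Tespa1+/+ (blue) and Tespa1-/- (red) LSKs; bars are means, error bars the SD and points the 3 libraries of each genotype. The H3K4 methyltransferases are the group with the largest sum in Tespa1+/+ (88.6) but not in Tespa1-/- LSKs (36.4), where the H3K9 methyltransferases are (62.8).

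Taken as summed FPKM, 9 of the 11 groups had no overlap between the genotypes, and all 9 were lower in Tespa1-/- LSKs. Of all genes, taken singly and by CPM, 69.1% had no overlap, and the H3K79 group is Dot1l alone. The lowest ratio of Tespa1-/- to Tespa1+/+ was 0.331 ± 0.0112, for the H3K27 demethylases, below the 0.411 ± 0.0376 of the H3K4 methyltransferases. The H3K36 methyltransferases followed at 0.547 ± 0.0118, Dot1l at 0.603 ± 0.0641, the H3K9 demethylases at 0.661 ± 0.0548, the SET or JmjC proteins with other substrates at 0.691 ± 0.0608, the H3K36 demethylases at 0.700 ± 0.0494 and the H3K4 demethylases at 0.716 ± 0.0296. The H3K9 methyltransferases lay nearest to equal of the groups without overlap, at 0.889 ± 0.0266. The groups that overlapped were the PRC2 core (0.935 ± 0.269) and the H4K20 methyltransferases (1.05 ± 0.115), which hold the uneven genes Suz12 and Kmt5c. FPKM divides by length within a library and does not remove the trend described next. No test was made on these sums.

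Exon length and fold change were related among the members. Over the 54 genes, Spearman's rho of the log2 fold change on exon length was -0.81, a description over genes that share libraries. It was -0.61 over 10135 genes with a mean log2 CPM over 3, so the members lay along a trend of the whole table. In bins of these genes by length the median log2 fold change went from 0.64 at a median of 685 exon bases to -0.56 at 12424. Of 21 members with more than 10000 exon bases 14 were called lower, and 3 with the correction. Of 33 shorter members 5 were called lower, and 1 with the correction, Kdm6b. Kdm6b has 6954 exon bases, near the middle of the members, whereas Kmt2d, Jmjd1c and Kmt2a have 19931, 17822 and 16670. With the correction rho was -0.41 over the members, so a relation of the same sign was left.

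**Figure D4:**
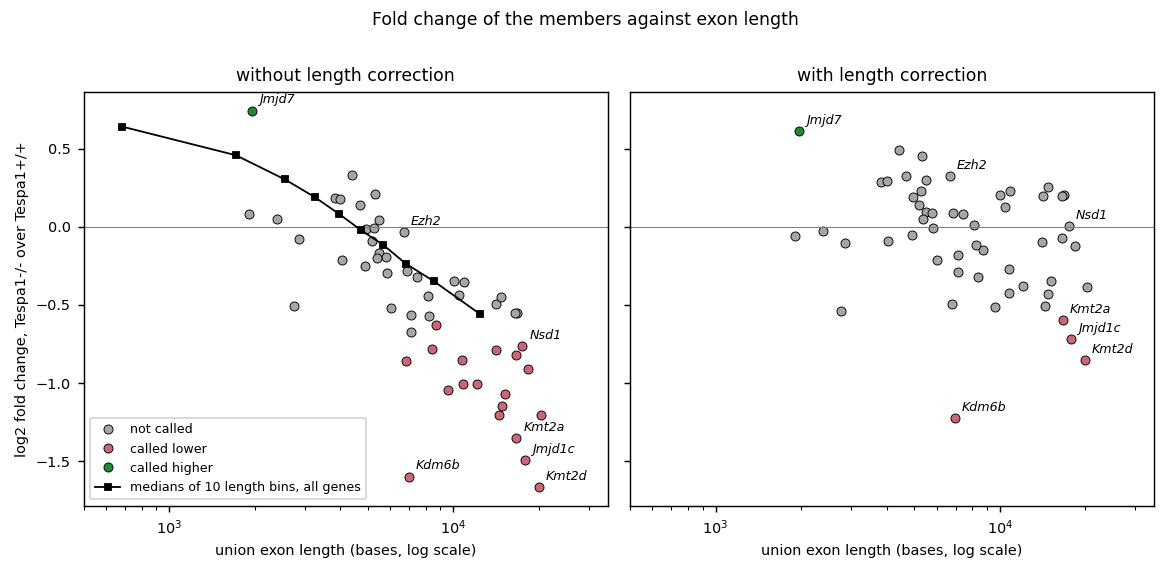
Log2 fold change of the 54 tested genes against their exon length (log axis), without (left) and with (right) the length correction, coloured by the call, with the medians of 10 length bins over 10135 genes as a black line on the left. The members run down along the line and beyond its end, with Kdm6b and Kmt2d lowest; on the right the 4 genes still called lower are Kdm6b, Kmt2a, Jmjd1c and Kmt2d, and Ezh2 is on the other side of 0.

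The spread within a group was small for most members. The median coefficient of variation was 4.09% in Tespa1+/+ against 6.26% in Tespa1-/- LSKs, and it was over 20% in 3 and 7 genes. In Tespa1+/+ these were Suz12, Jmjd8 (28.2%) and Jmjd4. In Tespa1-/- they were Suz12, Kdm2a (45.1%), Kmt5c (35.0%), Kdm4a (32.5%), Setd5 (29.8%), Jmjd4 (28.7%) and Setd1a (21.2%). The calls and values of these genes rest on more uneven data than those of Kmt2a, Kmt2d or Kdm6b. In all, 26 of the 55 genes share exon bases with another gene, 5 of them on the same strand, and the strand setting of the counting is not given in the sources used here.

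The enzymes work in complexes, so 71 further genes were examined, of which 69 were tested, 17 were called lower and 2 higher. That is 24.6% lower, nearer to the 19.2% of all genes than the members were, and 2.90% higher, against 14.0%. The median log2 fold change was -0.11. With the correction 6 were called lower (8.70%, against 13.4% of all genes) and 5 higher (7.25%, against 11.6%). Of the 12 COMPASS partners, which the H3K4 methyltransferases need, 11 were tested. The scaffold Hcfc1 was called lower in both fits (-1.06 and -0.60) and Ncoa6 without the correction only (-0.60 and -0.066), whereas Dpy30 was called higher (0.62, and 0.37 with the correction). Wdr5 and Ash2l, shared subunits of all the KMT2 and SET1 complexes, passed the adjusted p at 0.19 and 0.11, and with the correction Wdr5 passed it at 0.27 and Ash2l was called higher (0.61). None of the shared core subunits, Wdr5, Rbbp5, Ash2l and Dpy30, was called lower in either fit.

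Of the 6 partners of DOT1L, which join it to elongating polymerase, 5 were called lower, and 1 with the correction. The shares of all genes called lower were 19.2% and, with the correction, 13.4%. Aff4 was at 140 CPM in Tespa1+/+ against 56.1 in Tespa1-/- LSKs on average (-1.32 and -0.65), and Mllt3, known from HSC maintenance, had -0.75 and -0.13. Of the 7 PRC2 partners none was called without the correction, when 4 passed the adjusted p, among them Jarid2 (-0.25) and Aebp2 (-0.33). With the correction these turned to 0.29 and 0.21, and Rbbp4 was called higher (0.67, and 0.19 without). Of 16 subunits of PRC1, the complex that binds H3K27 methylation, 3 were called lower, Cbx2 (-1.11), Phc1 (-0.89) and Cbx7 (-0.72), of which Cbx2 and Phc1 remained with the correction (-0.96 and -0.65) and Cbx7 did not (-0.38). Phc3 was called higher with it (1.19, and 0.42 without). The 3 of 16 are 18.8%, near the 19.2% of all genes.

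Of 7 genes for HP1 and other H3K9 partners, Atf7ip (-1.03) and Cbx5 (-0.63) were called lower without the correction but not with it (-0.21 and -0.13), and Mphosph8 was called higher in both fits (0.75 and 0.83). Of 8 LSD1 partners Phf21a was called lower without the correction (-0.61 and -0.13) and Gfi1b with it (-0.57 and -0.72). Of 15 further lysine methyltransferase and demethylase genes outside the name rule, 14 were tested and 4 were called lower, against 19.2% of all genes. They were Mecom (-1.67), Prdm2 (-0.72), Uty and Phf2 (-0.66), of which Prdm2 (-0.31), Uty and Phf2 (-0.40) were not called with the correction. Mecom, which encodes the HSC regulator EVI1, went from 15.0 to 4.75 CPM and was called with the correction too (-1.03), where Smyd3 was called higher (0.59, and 0.085 without).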

How the data were processed

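Stranded poly(A) RNA-seq libraries of LSKs were examined, 3 Tespa1+/+ and 3 Tespa1-/-, grouped by genotype from the labels; dose, day, sex and age are from the methods of the study. The deposited table holds, per gene, raw counts and FPKM (scaled to exon length and library size by the authors); per the labels, CASAVA 1.8, HISAT2, StringTie and edgeR were used with GRCm38, and the strand setting of the counting is not given in the sources used here. The locus of each of the 55 genes was identical in GENCODE M21, from which exon lengths (union of exons) were taken.

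Counts were tested in R 4.3.3 with edgeR 4.0.16 (filterByExpr, TMM, quasi-likelihood F-test, Benjamini-Hochberg over all 15332 genes tested); called means adjusted p under 0.05 and a fold over 1.5. CPM are scaled by TMM. The length correction adds an offset, a loess (span 0.5) of each library's log2 CPM deviation on log2 exon length, over 15320 genes. Its form was settled after member calls under a first form, robust local lines, were seen. That first form is given as an alternative. FPKM were used only to compare levels between genes and in limma 3.58.1 on log2(FPKM + 1) or log2(FPKM + 0.1), for genes of at least 1 FPKM in at least 3 libraries. Other alternatives were RLE factors, total counts, no filter, at least 10 counts in every library, DESeq2 1.42.0, the replicate number as a block, exon length implied by FPKM, and leaving out each library.

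On simulated counts of this comparison (15254 genes, 200 changed) edgeR recovered 99% and made 3 false calls. Where a length trend was built in (15269 genes) it made 2066, or 1 with the correction. That trend was a straight line on log2 exon length, which the correction is built to take out, so this drop was fixed in advance. It does not show how well the correction suits the trend in the data. Depth was 12856630 to 30576981 counts. The bound on a count of 0 covers counting error only, whereas SEs and SDs include the spread between libraries. Pairs of libraries within a group differed beyond sampling noise (chi-square over its degrees of freedom 8.74 to 12.0), so none was counted as a copy of another. Replicate numbers are shared between the groups, but deviations of same-numbered libraries correlated at -0.07, -0.08 and 0.01 over 10033 genes, so they were not treated as pairs.

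The members, role groups, partner lists, marker lists and tests were chosen with earlier results of these data known. All members could be named; values per library were given for preset genes and for the 8 largest called falls and rises, and for Ehmt2, Setd5, Setd7, Kdm4a and Kmt5c, which were added after their values were seen. Up to 3 genes each way were named per partner list, with Wdr5, Rbbp5, Jarid2, Aebp2 and Uty, and S100a8 and Ngp of the neutrophil list, added likewise.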

Additional observations from a re-analysis of the deposited data

How the results depend on the processing

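No other choice moved the results as much as exon length. All 19 members called lower were also called lower with RLE factors, total counts, no filter, at least 10 counts, DESeq2, the replicate block and limma on either scale, which called 19 (RLE) to 27 (total counts). With the replicate block the count was 20 lower and 1 higher; no paired reading was drawn, since same-numbered libraries did not deviate together. Leaving out each library gave 19 to 21 lower and 1 higher; Dot1l was lost without replicate 2 of Tespa1+/+ or replicate 3 of Tespa1-/-. Of 54 members, 17 kept direction and side of the adjusted p under all 17 alternatives.

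With the length correction 4 members were lower, with robust local lines for the trend 7, and with length implied by FPKM 7. Robust lines were the first form, and the form of the correction was settled after member calls under them were seen. The same 4 members were in all of these fits. Kmt2b and Setd1a were called in both of these other forms, Jmjd8 with the robust lines and Setd7 with FPKM length. No member was called higher with the robust lines or with limma at + 1 (0 against 1). Leaving out each library from the corrected fit gave 3 to 6 lower and 1 to 2 higher; with the replicate block it gave 4 and 1. Kmt2a was lost without replicate 3 of Tespa1-/-, Kdm2a and Setd1a were gained without its replicate 1, Kmt2b and, as higher, Suv39h2 without its replicate 2, and without replicate 2 of Tespa1+/+ Jmjd7 was lost, with Jmjd8 gained as lower and Suv39h2 as higher.

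The direction turned with the length correction for 20 members, by log2 fold change: Ehmt1 0.0091, Ezh1 0.085, Ezh2 0.32, Kdm1a 0.14, Kdm1b 0.095, Kdm2b 0.23, Kdm4a 0.088, Kdm5a 0.20, Kdm7a 0.20, Kdm8 -0.024, Kmt2e 0.13, Kmt5b 0.26, Nsd1 0.0057, Nsd2 0.20, Nsd3 0.20, Setd4 0.049, Setd6 -0.056, Setdb1 0.089, Suv39h1 0.23 and Suz12 0.19. With robust lines it turned for 13: Ezh2 0.20, Kdm1a 0.011, Kdm2b 0.13, Kdm5a 0.11, Kdm7a 0.093, Kdm8 -0.19, Kmt2e 0.021, Kmt5b 0.18, Nsd2 0.14, Nsd3 0.13, Setd6 -0.22, Suv39h1 0.10 and Suz12 0.065. With FPKM length it turned for 17: Ehmt1 0.060, Ezh1 0.039, Ezh2 0.24, Kdm1a 0.13, Kdm1b 0.13, Kdm2b 0.26, Kdm4a 0.085, Kdm4b 0.0016, Kdm5a 0.098, Kdm7a 0.0195, Kdm8 -0.0014, Kmt5b 0.35, Nsd2 0.27, Nsd3 0.14, Setd4 0.14, Suv39h1 0.30 and Suz12 0.22. Ehmt2, Kdm8 and Setd6 turned with limma at + 0.1 (-0.059, -0.027 and -0.018), limma at + 1 (-0.058, -0.024 and -0.015) and total counts (-0.060, -0.048 and -0.018). None of these 3 passed the adjusted p in those settings. Direction here means the side of 0. With the length correction, and with FPKM length, the median of all genes was 0.11. Ehmt1, Ezh1, Kdm1b, Kdm4a, Nsd1, Setd4 and Setdb1 were below that median with the correction, as they were below the median of all genes without it.

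Over single libraries left out, the log2 fold change ranged from -0.033 to 0.21 for Kdm8, from -0.051 to 0.23 for Setd6, from -0.28 to 0.41 for Suz12, from -0.10 to 0.41 for Kmt5c and from -0.031 to 0.033 for Suv39h1. Kmt5c passed the adjusted p without replicate 1 of Tespa1-/-.

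Partner genes called lower numbered 6 with the length correction, 6 with robust lines, 5 with FPKM length and 11 with limma at + 1, against 17, and 15 to 19 over libraries left out. Partner genes called higher numbered 5 with the correction, 4 with FPKM length and 1 with limma on either scale or with total counts, against 2, and 1 to 3 over libraries left out. As summed CPM the ratio of Tespa1-/- to Tespa1+/+ was 0.368 for the H3K27 demethylases, 0.630 for the H3K36 demethylases, 0.597 for the H3K36 methyltransferases and 0.948 for the H3K9 methyltransferases. The log2 difference in the ratio of Ezh2 to Ezh1 was 0.23 to 0.35 over libraries left out.

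Leaving out a library leaves 2 in its group. Within groups Suz12 varied by 43.9% and 50.2%, more than any other tested member. The length correction takes out any change that goes with length, and the cause of the length trend was not tested.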

Other observations

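Marker lists of other cell types gave these values beside those for neutrophils. Sums are over all listed genes, and calls are out of those that passed the filter on low counts. Of all genes tested, 19.2% were called lower and 14.0% higher. Megakaryocyte genes summed to 121 to 128 CPM in Tespa1+/+ and 70.2 to 74.4 in Tespa1-/- libraries (3 of 6 called lower). B cell genes summed to 54.7 to 60.0 and 40.6 to 43.9 CPM (5 of 7 tested lower). T cell genes summed to 15.6 to 17.0 and 8.13 to 9.10 CPM (3 of 3 tested lower, of 7 listed). Monocyte and macrophage genes summed to 509 to 543 and 638 to 725 CPM, with 1 of 6 called higher and 2 lower. Plasma cell genes summed to 139 to 162 and 223 to 231 CPM, with 1 of 5 tested higher and 3 lower. Erythroid genes summed to 28.5 to 29.6 and 47.3 to 51.9 CPM, with 3 of 6 tested higher and 2 lower. The 5 lineage markers used for depletion summed to 237 to 251 and 160.3 to 216 CPM, with neither of the 2 tested called. Ly6g had no counts in Tespa1+/+ and Cd3e none in Tespa1-/- libraries.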
